A study of Mus musculus with 2 samples.

Results

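The genes that copy the genome and supply its building blocks were described in 2 RNA-seq libraries of mouse bone marrow-derived dendritic cells, 1 mature and 1 immature. A list of 45 genes was used, chosen by gene symbol and matched to the Entrez Gene numbers of the deposited tables, out of 18090 gene numbers in either library. All 45 were found, and all 45 reached at least 1 RPKM (reads counted to a gene, divided by its kilobases and by the library's reads in units of 1000000) in at least 1 library. Orc1, Cdc6 and Mcm10 reached it in the immature library only.

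Dendritic cells take up antigen and present it to T cells. Mature cells here were C57BL/6 marrow cells grown for 6 days with 10 ng/ml of GM-CSF and 1 ng/ml of IL-4, given lipopolysaccharide (LPS, a bacterial cell wall component) at 100 ng/ml for 24 h with both growth factors kept, and sorted on CD86 and I-Ab (an MHC class II molecule). Immature cells were C57BL/6 marrow cells grown for 6 days with the same growth factors, without LPS, and sorted on the same markers. The LPS step is recorded for "sample 2", which was read as the mature library. The gates of the sort, the age and number of the animals and any pooling were not stated in the labels. It is also not stated whether the immature cells stayed in culture for the extra 24 h. LPS, culture time and the gates of the sort therefore cannot be told apart.

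The mature library held 8.07 M reads over 16646 genes and the immature library 7.56 M reads over 16573 genes, and the median gene listed had 82 reads in both. Each group has 1 library, so the spread between replicates is unknown and nothing was tested. Each difference is between these libraries. Differences are given as the plain ratio of RPKM with an exact 95% interval that covers counting error only. Log2 folds are on the log2(RPKM + 1) scale, mature over immature, which understates the change of genes with low values. A gene was counted as lower or higher when it was at least 2-fold apart on that scale. The background is the 11547 genes that reached 1 RPKM in either library: 11.3% of them were at least 2-fold lower in the mature library and 9.05% were at least 2-fold higher.

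Before a cell copies its DNA, the origin recognition complex, Cdc6 and Cdt1 load the ring-shaped helicase of Mcm2 to Mcm7 onto origins, a step called licensing that geminin (Gmnn) blocks by binding Cdt1. In S phase, Cdc45 and the GINS complex join that ring to make the active helicase, primase lays down primers, polymerases epsilon and delta extend them on the leading and lagging strands, and a sliding clamp, a clamp loader, a flap nuclease and a ligase finish the strand. Ribonucleotide reductase and the enzymes of thymidylate synthesis supply the deoxynucleotides. Many of these genes are transcribed as cells enter S phase, under E2F factors. In marrow cultures with GM-CSF, precursors divide before they become dendritic cells.

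Promoter letters of 4 genes are shown because these genes mark the range of the values below. Rrm2, Mcm5 and Top2a were the members with the lowest log2 folds and Gins3 was the only one that was higher. They were chosen after their values were seen. The sequences are the 250 bases before the RefSeq start on assembly GRCm38.p6, written 5′ to 3′ on the strand of the gene: chr12:24708004-24708253 (plus strand) for Rrm2, chr8:75109259-75109508 (plus strand) for Mcm5, chr11:99024190-99024439 (minus strand) for Top2a and chr8:95633309-95633558 (plus strand) for Gins3. Capitals mark letters that match a searched motif on either strand. These were the E2F-type words TTTCGCGC, TTTGGCGC, TTTCCCGC and TTTGGCGG, the NF-Y-type word CCAAT, which reads as ATTGG on the other strand, and the CHR-type word TTTGAA with its variant TTCGAA, where CHR stands for cell cycle genes homology region.
Rrm2: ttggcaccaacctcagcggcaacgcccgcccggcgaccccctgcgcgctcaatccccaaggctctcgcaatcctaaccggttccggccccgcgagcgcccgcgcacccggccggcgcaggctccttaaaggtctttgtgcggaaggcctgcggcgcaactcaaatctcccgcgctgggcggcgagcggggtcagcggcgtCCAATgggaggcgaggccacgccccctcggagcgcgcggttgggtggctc
Mcm5: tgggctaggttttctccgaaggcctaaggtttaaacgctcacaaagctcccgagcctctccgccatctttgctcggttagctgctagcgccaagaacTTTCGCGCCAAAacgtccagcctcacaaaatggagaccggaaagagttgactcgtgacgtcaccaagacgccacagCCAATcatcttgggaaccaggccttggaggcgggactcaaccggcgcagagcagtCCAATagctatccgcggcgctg
Top2a: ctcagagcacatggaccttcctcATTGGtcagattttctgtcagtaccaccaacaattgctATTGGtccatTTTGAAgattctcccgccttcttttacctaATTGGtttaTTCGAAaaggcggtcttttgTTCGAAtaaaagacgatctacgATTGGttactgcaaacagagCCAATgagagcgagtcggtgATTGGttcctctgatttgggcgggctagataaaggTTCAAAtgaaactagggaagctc
Gins3: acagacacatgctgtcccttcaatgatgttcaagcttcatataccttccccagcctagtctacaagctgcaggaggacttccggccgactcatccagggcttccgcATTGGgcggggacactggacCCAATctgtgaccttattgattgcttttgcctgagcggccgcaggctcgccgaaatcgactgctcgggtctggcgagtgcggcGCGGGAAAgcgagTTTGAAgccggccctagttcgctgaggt
Mcm5 held a pair of E2F-type words that overlap, with their leftmost letters at -153 and -149 from the start, and CCAAT words at -77 and -22. The Top2a promoter held 6 CCAAT and 4 CHR-type words and no E2F-type word. Rrm2 held 1 CCAAT word. Gins3, the gene with the opposite direction, held all the 3 kinds, with its E2F-type word on the reverse strand. The RefSeq start lay 13, 60, 0 and 5 bases from the nearest start of the GENCODE annotation for Rrm2, Mcm5, Top2a and Gins3.

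Nearly all of the 45 chosen replication and nucleotide genes were lower in mature cells. The list was chosen with earlier results of these data known, and of 33 other replication factors tested 14 were at least 2-fold lower. At least 2-fold lower were 38 of the 45 members, against the 11.3% of all genes tested. Gins3 alone was at least 2-fold higher, against 9.05% of all genes tested, and 6 members were within 2-fold: Gins4, Pola2, Pold2, Rfc2, Rfc3 and Rpa3. The median log2 fold of the members was -1.75 (95% interval over members -2.18 to -1.43), and that of all genes tested was 0.026. That interval treats the 45 genes as independent draws, which they are not, and it does not cover the spread between libraries. In bulk RNA, fewer cells of a type and less RNA per cell cannot be told apart, so these values do not separate a smaller share of dividing cells from lower expression in each cell.

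Sizes varied widely among members. On the log2(RPKM + 1) scale, 16 of 45 were at least 4-fold lower, against 2.74% of all genes tested. At least 8-fold lower on that scale were 8 of 45, against 1.02%. These 8 were Rrm2, Mcm5, Top2a, Cdc45, Asf1b, Gins1, Mcm7 and Mcm10, which lie in 4 of the 7 role groups. By plain ratio Cdc6, Orc1, Mcm2 and Pole also passed 8-fold, at 21.0-fold, 9.70-fold, 8.75-fold and 8.29-fold lower. Orc1, Brca1, Mcm3, Tk1, Pole2 and Mcm4 passed 4-fold by plain ratio only. For 36 members the whole counting interval of the ratio lay beyond 2-fold lower, against 8.67% of all genes tested. Of the members counted as lower, Pcna and Rfc4 were the exceptions. The interval lay wholly below 1 for 43 members, against 33.8% of all genes tested, and Gins3 and Rpa3 were the exceptions there.

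All members together took 0.0735% of the counted reads in mature cells (5938 reads, Wilson 95% interval 0.0717% to 0.0754%) and 0.338% in immature cells (25546 reads, 0.334% to 0.342%). That share was 4.59-fold lower in mature cells (4.46 to 4.72). The median level of a member was 5.41 RPKM in mature and 21.7 RPKM in immature cells, while the median of all genes tested was 10.4 RPKM in each. Members ran from 0.296 RPKM (Cdc6) to 31.1 RPKM (Pcna) in mature cells, and from 3.07 RPKM (Gins3) to 98.4 RPKM (Top2a) in immature cells. At least 10 RPKM was reached by 9 members in mature and 37 in immature cells. All 45 were still detected in mature cells, with no member at 0 reads there. Across the 45 genes, which are not independent replicates, the levels in mature and immature cells had a Spearman's rho of 0.52. The log2 fold and the immature level had one of -0.25. The immature level is itself part of the log2 fold, so that value cannot be read as a relation between them.

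**Figure D1:**
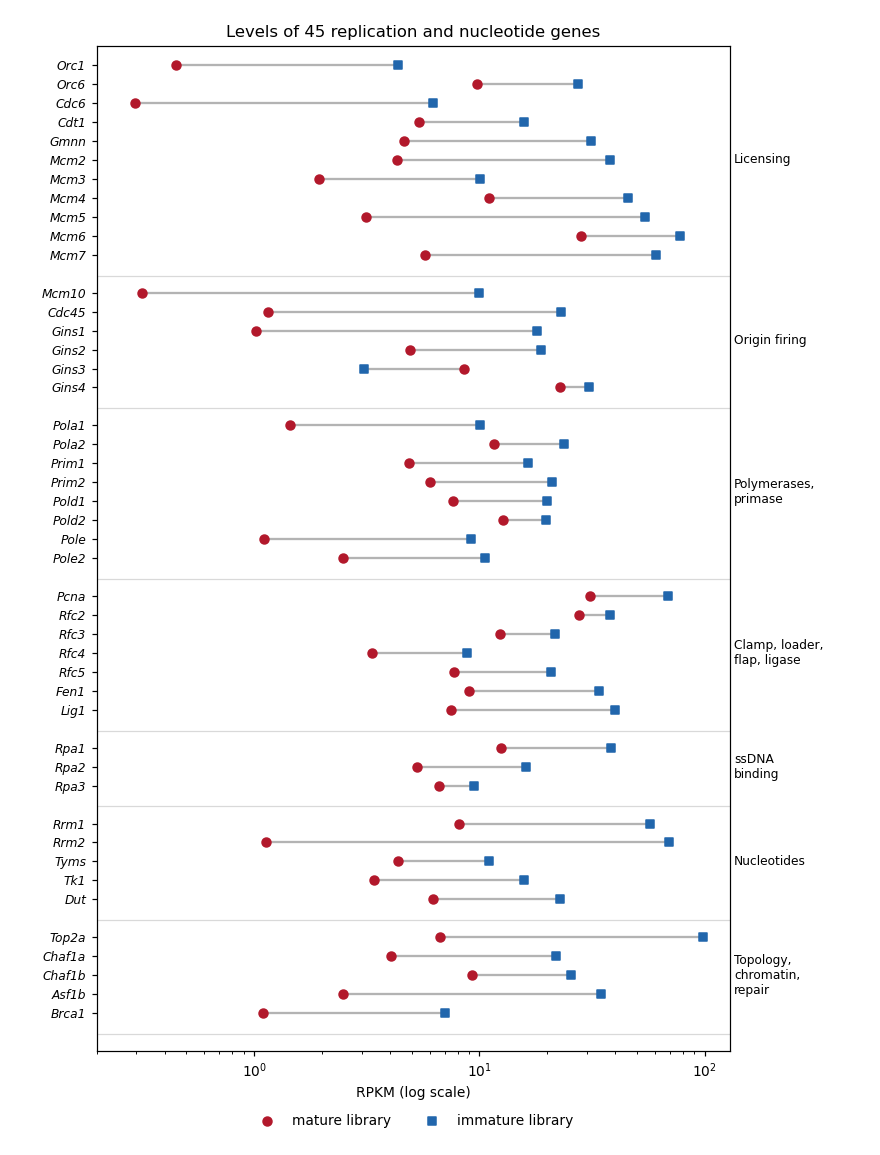
RPKM of each of the 45 genes (log axis) in the mature library (circles) and the immature library (squares), grouped by role, with a line joining the values of a gene. The circle lies left of the square for 44 genes and right of it for Gins3.

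Licensing genes were lower without exception. All 11 were at least 2-fold lower, against 11.3% of all genes tested, with a median log2 fold of -1.96. Their share of reads was 5.11-fold lower (4.85 to 5.40). Their summed level was 74.8 RPKM in mature and 371 RPKM in immature cells. Their folds ran from 2.76-fold to 21.0-fold lower, and the loading factors lay near both ends of that range.
Cdc6, the ATPase that loads the helicase ring, had 11 reads (0.296 RPKM) in mature cells and 216 reads (6.20 RPKM) in immature cells. It was 21.0-fold lower (11.5 to 42.6), a wide interval that comes from the 11 reads. Cdt1, its partner in loading, had 98 reads (5.41 RPKM) in mature and 268 reads (15.8 RPKM) in immature cells and was 2.92-fold lower (2.31 to 3.72). The intervals of these partners did not overlap.
Gmnn, the inhibitor of Cdt1, had 37 reads (4.61 RPKM) in mature cells and 235 reads (31.2 RPKM) in immature cells, 6.78-fold lower (4.78 to 9.87). The level of Cdt1 over that of Gmnn was 1.17 in mature and 0.505 in immature cells. With 37 reads of Gmnn in mature cells, the order of the pair there is not settled.

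The origin recognition complex divided into subunits that were at least 2-fold lower and subunits within 2-fold. Orc1, its largest subunit and an ATPase, had 11 reads (0.450 RPKM) in mature and 100 reads (4.37 RPKM) in immature cells and was 9.70-fold lower (5.20 to 20.1). Orc6 had 131 reads (9.76 RPKM) in mature and 343 reads (27.3 RPKM) in immature cells, 2.79-fold lower (2.28 to 3.44). The other 4 subunits, which are no members, stayed within 2-fold, with ratios of 0.838 for Orc2, 0.913 for Orc3, 1.39 for Orc4 and 1.59 for Orc5. The highest subunit stood at 36.6 times the lowest in mature cells and at 6.24 times in immature cells, with Orc1 lowest in both.

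All 6 subunits of the Mcm2-7 helicase were lower, by 2.76-fold to 17.2-fold. Mcm5 had 87 reads (3.15 RPKM) in mature and 1403 reads (54.2 RPKM) in immature cells, 17.2-fold lower (13.9 to 21.6). Mcm7 had 111 reads (5.74 RPKM) in mature and 1100 reads (60.7 RPKM) in immature cells, 10.6-fold lower (8.70 to 13.0). Mcm2 had 118 reads (4.32 RPKM) in mature and 967 reads (37.8 RPKM) in immature cells, 8.75-fold lower (7.22 to 10.7).
These 3 subunits had the largest folds, though the interval of Mcm2 overlapped that of Mcm3. Mcm4 had 320 reads (11 RPKM) in mature and 1241 reads (45.7 RPKM) in immature cells, 4.14-fold lower (3.66 to 4.70). Mcm3 had 45 reads (1.93 RPKM) in mature and 219 reads (10.0 RPKM) in immature cells, 5.19-fold lower (3.75 to 7.33). Mcm6 had 659 reads (28.1 RPKM) in mature and 1706 reads (77.8 RPKM) in immature cells and was the subunit with the smallest difference, 2.76-fold lower (2.52 to 3.03).
The ring holds 1 copy of each subunit, but the transcripts were not at like levels: Mcm6 was highest and Mcm3 lowest in both libraries, 14.6 times apart in mature and 7.75 times in immature cells. The Mcm3 level is uncertain, since reads covered little of its length, as given below. Mcm6 stood at 8.94 times Mcm5 in mature cells and at 1.43 times in immature cells. Of the related Mcm8 and Mcm9, which act in recombination repair and are no members, Mcm8 was at 1.70 RPKM in mature and 4.91 RPKM in immature cells (ratio 0.346, 0.239 to 0.493). Mcm9 was at 6.40 RPKM in mature and 3.96 RPKM in immature cells (ratio 1.62, 1.28 to 2.05).

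Origin firing factors held the member that was higher beside some of the lowest ones. Of 6 members 4 were lower, 1 was higher and 1 was within 2-fold, against 11.3% lower and 9.05% higher of all genes tested. Their median log2 fold was -2.40. Mcm10, which helps to activate the loaded helicase, had 9 reads (0.318 RPKM) in mature and 263 reads (9.91 RPKM) in immature cells, 31.2-fold lower (16.2 to 69.0). Cdc45, the helicase cofactor, had 20 reads (1.15 RPKM) in mature and 376 reads (23.0 RPKM) in immature cells, 20.1-fold lower (12.8 to 33.2). Few reads were left of either in mature cells.

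The 4 GINS subunits, which form a single complex that joins Cdc45 and the Mcm ring, had ratios that differed from each other beyond their counting intervals. Gins1 had 9 reads (1.01 RPKM) in mature and 150 reads (18.0 RPKM) in immature cells, 17.8-fold lower (9.12 to 39.7). Gins2 had 42 reads (4.90 RPKM) in mature and 151 reads (18.8 RPKM) in immature cells, 3.84-fold lower (2.71 to 5.54). Gins4 had 251 reads (22.8 RPKM) in mature and 317 reads (30.7 RPKM) in immature cells, 1.35-fold lower (1.14 to 1.60).
Gins3 went the other way, with 167 reads (8.58 RPKM) in mature and 56 reads (3.07 RPKM) in immature cells, a ratio of 2.79 (2.05 to 3.85). With a pseudocount of 5 RPKM in place of 1, Gins3 stayed above 1 but was no longer 2-fold higher. The counting intervals of the 4 ratios were all disjoint, and the highest ratio was 49.7 times the lowest. The level of Gins3 over that of Gins1 was 8.46 in mature and 0.170 in immature cells. Reads covered 79.5% of the length of Gins3 in mature and 57.4% in immature cells, and no other gene of the GENCODE annotation shares exon bases with it.

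**Figure D2:**
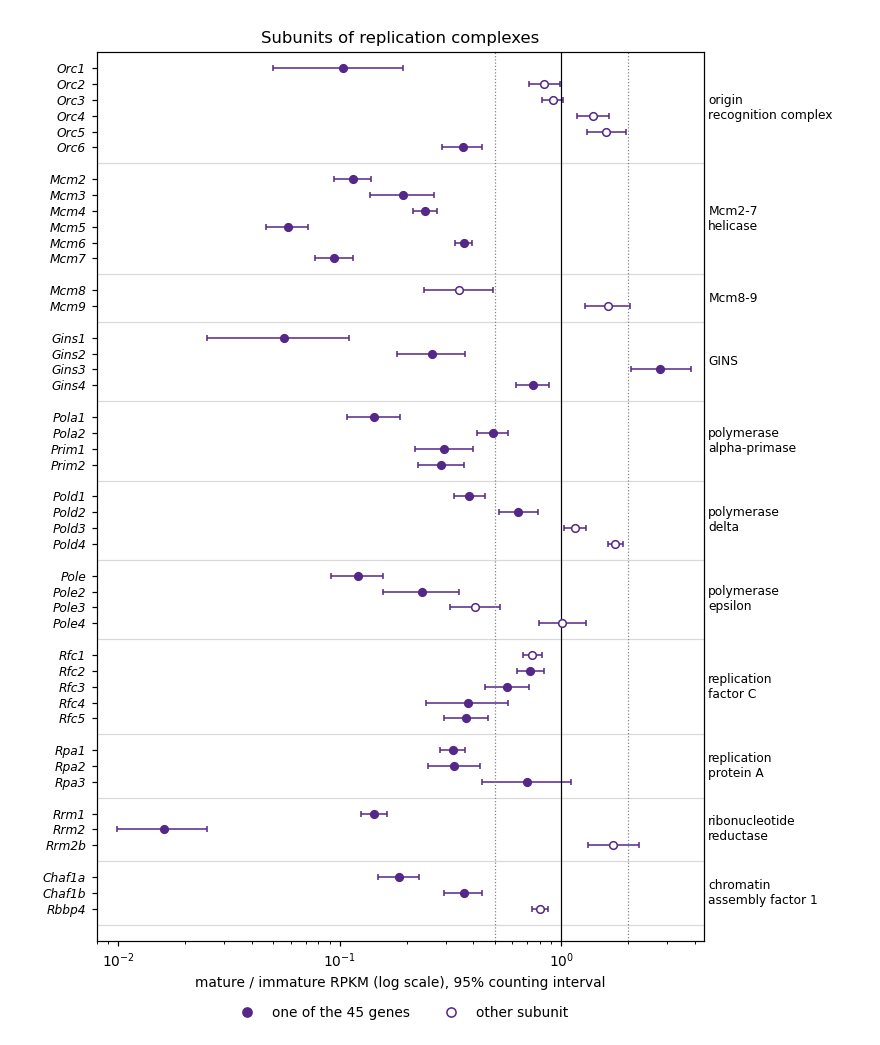
Ratio of mature to immature RPKM (log axis) for the subunits of replication complexes, with exact 95% counting intervals as bars. Filled points are members and open points are other subunits of the same complexes, the solid line marks a ratio of 1 and the dotted lines mark 2-fold. The 4 GINS points are disjoint, and the Orc2 to Orc5 points lie near 1 while Orc1 and Orc6 lie left of the 2-fold line.

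Among the polymerases and primase, 6 of 8 members were lower, against 11.3% of all genes tested, and 2 were within 2-fold. Their median log2 fold was -1.61. The catalytic subunits of polymerases alpha and epsilon had the largest folds. Pole, the catalytic subunit of the leading-strand polymerase, had 64 reads (1.11 RPKM) in mature and 497 reads (9.17 RPKM) in immature cells, 8.29-fold lower (6.38 to 10.9). Pola1, the catalytic subunit of the priming polymerase, had 62 reads (1.44 RPKM) in mature and 406 reads (10.0 RPKM) in immature cells, 6.99-fold lower (5.34 to 9.29).
In polymerase alpha-primase the other subunits differed less than Pola1. Prim1, the small catalytic subunit of primase, was at 4.85 RPKM in mature and 16.4 RPKM in immature cells, 3.38-fold lower (2.52 to 4.6). Prim2, the large subunit, was at 6.01 RPKM in mature and 21.0 RPKM in immature cells, 3.49-fold lower (2.76 to 4.44). Pola2, the accessory subunit, was at 11.7 RPKM in mature and 23.8 RPKM in immature cells, 2.05-fold lower by plain ratio (1.74 to 2.41) but with a log2 fold of -0.97, just short of the limit. The spread between the highest and the lowest subunit was 8.12 times in mature and 2.38 times in immature cells.

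Polymerase delta, which extends the lagging strand, held smaller differences. Pold1, its catalytic subunit, had 212 reads (7.66 RPKM) in mature and 517 reads (19.9 RPKM) in immature cells, 2.60-fold lower (2.21 to 3.07). Pold2, an accessory subunit, had 167 reads (12.7 RPKM) in mature and 245 reads (19.8 RPKM) in immature cells, 1.57-fold lower (1.28 to 1.92). Both accessory subunits that are no members lay above 1: the ratio was 1.15 (1.02 to 1.29) for Pold3 and 1.75 (1.62 to 1.89) for Pold4, which stood at 242 RPKM in mature and 139 RPKM in immature cells. In polymerase epsilon, Pole2, the second subunit, had 34 reads (2.48 RPKM) in mature and 136 reads (10.6 RPKM) in immature cells, 4.27-fold lower (2.91 to 6.41). Pole3 and Pole4, small histone-fold subunits and no members, had ratios of 0.408 and 1.01.

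The clamp, its loader and the enzymes that join Okazaki fragments had a median log2 fold of -1.18. This median was the closest to 0 of the 7 role groups. Of 7 members 5 were lower, against 11.3% of all genes tested, and 2 were within 2-fold. Pcna, the sliding clamp, had 316 reads (31.1 RPKM) in mature and 658 reads (69.0 RPKM) in immature cells, 2.22-fold lower (1.94 to 2.55). It was the most abundant member in mature cells. Lig1, the replicative DNA ligase, had 192 reads (7.46 RPKM) in mature and 963 reads (40.0 RPKM) in immature cells, 5.35-fold lower (4.58 to 6.28). Fen1, the flap endonuclease, had 160 reads (8.95 RPKM) in mature and 567 reads (33.8 RPKM) in immature cells, 3.78-fold lower (3.17 to 4.54).
The enzyme that seals fragments thus differed more than the clamp, and their intervals did not overlap. Of the clamp loader (replication factor C), Rfc5 was at 7.71 RPKM in mature and 20.8 RPKM in immature cells, 2.69-fold lower (2.15 to 3.39). Rfc4 had 33 reads (3.32 RPKM) in mature and 82 reads (8.81 RPKM) in immature cells, 2.65-fold lower (1.75 to 4.10). Rfc3 was at 12.3 RPKM in mature and 21.7 RPKM in immature cells, 1.76-fold lower (1.39 to 2.22).
Rfc2 was at 27.7 RPKM in mature and 38.1 RPKM in immature cells, 1.38-fold lower (1.19 to 1.59), close to Rfc1, the large subunit and no member, with a ratio of 0.738 (0.668 to 0.815). The loader was the complex whose ratios were closest to each other, with the highest 1.99 times the lowest. Replication protein A followed at 2.16 times, and with the wide intervals of Rfc4 and Rpa3 that order is not settled. Rfc2, Rfc4 and Rfc5 share exon bases with other genes, as given below.

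Replication protein A, the trimer that coats single-stranded DNA, had 2 subunits lower, against 11.3% of all genes tested, and 1 within 2-fold. Rpa1, the large DNA-binding subunit, had 314 reads (12.5 RPKM) in mature and 909 reads (38.5 RPKM) in immature cells, 3.09-fold lower (2.72 to 3.52). Rpa2 had 76 reads (5.28 RPKM) in mature and 217 reads (16.1 RPKM) in immature cells, 3.05-fold lower (2.34 to 4.01), near the value of Rpa1. Rpa3, the smallest subunit, had 35 reads (6.62 RPKM) in mature and 47 reads (9.49 RPKM) in immature cells, 1.43-fold lower with an interval that holds 1 (0.906 to 2.29), so no difference was detectable for it at this depth.

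Nucleotide synthesis held the member with the lowest fold. All 5 members were at least 2-fold lower, against 11.3% of all genes tested, with a median log2 fold of -1.94. Their share of reads was 7.04-fold lower (6.45 to 7.70). Rrm2, the small subunit of ribonucleotide reductase that is made in dividing cells, had 20 reads (1.13 RPKM) in mature and 1159 reads (69.7 RPKM) in immature cells. It was 61.9-fold lower (39.9 to 102), and its log2 fold of -5.05 ranked 4 from the bottom of the 11547 genes tested. Rrm1, the large subunit, had 263 reads (8.15 RPKM) in mature and 1726 reads (57.1 RPKM) in immature cells, 7.01-fold lower (6.15 to 8.01).
The subunits of the same enzyme thus had intervals far apart: Rrm1 stood at 7.23 times Rrm2 in mature and 0.819 times in immature cells. Rrm2b, the alternative small subunit that p53 induces and no member, was at 4.51 RPKM in mature and 2.63 RPKM in immature cells, a ratio of 1.72 (1.32 to 2.25). Its level was 4 times that of Rrm2 in mature cells and 0.0377 times in immature cells. The more abundant small subunit transcript was therefore Rrm2b in mature and Rrm2 in immature cells.
The enzymes around thymidylate had smaller folds, and the interval of Tk1 overlapped that of Rrm1. Tk1, the cytosolic thymidine kinase, had 38 reads (3.39 RPKM) in mature and 166 reads (15.8 RPKM) in immature cells, 4.66-fold lower (3.26 to 6.82). Dut, which breaks down dUTP, had 118 reads (6.20 RPKM) in mature and 406 reads (22.8 RPKM) in immature cells, 3.67-fold lower (2.98 to 4.55). Tyms, thymidylate synthase, had 133 reads (4.33 RPKM) in mature and 316 reads (11 RPKM) in immature cells, 2.54-fold lower (2.06 to 3.13).

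Genes of topology, chromatin assembly and repair had a read share 9.53-fold lower (8.77 to 10.4). All 5 members were at least 2-fold lower, against 11.3% of all genes tested, and their median log2 fold was -2.18. Top2a, the topoisomerase that untangles copied chromosomes, had 282 reads (6.70 RPKM) in mature and 3882 reads (98.4 RPKM) in immature cells, 14.7-fold lower (13.0 to 16.6). It gave 4.75% of the members' reads in mature and 15.2% in immature cells, and the share of its group rests largely on it, with 282 of 624 reads in mature and 3882 of 5572 in immature cells. Asf1b, a histone chaperone of dividing cells, had 32 reads (2.48 RPKM) in mature and 419 reads (34.6 RPKM) in immature cells, 14-fold lower (9.75 to 20.7).
Both differed more than the subunits of chromatin assembly factor 1, which deposits histones behind the fork. Chaf1a was at 4.04 RPKM in mature and 21.8 RPKM in immature cells, 5.40-fold lower (4.38 to 6.70). Chaf1b was at 9.26 RPKM in mature and 25.6 RPKM in immature cells, 2.76-fold lower (2.27 to 3.37). Their partner Rbbp4, which belongs to several chromatin complexes and is no member, had a ratio of 0.800 (0.740 to 0.866).
Brca1, a factor of recombination repair, had 59 reads (1.10 RPKM) in mature and 355 reads (7.06 RPKM) in immature cells, 6.42-fold lower (4.86 to 8.61).

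Some member values are less certain than their counting intervals show. Only uniquely placed reads were counted, and in immature cells reads covered 35% of the length of Mcm3, against a median of 80.0% for the 201 genes nearest to it in level. Pcna had 49.6% against 95%, Cdc6 48.4% against 70.2%, Dut 53.7% against 89.9% and Tyms 59.6% against 82.8%. Orc6 had 72.5% against 91.35% and Rpa3 61.1% against 79.6%. These were the members furthest below their neighbours in level. The levels of these genes may miss reads in both libraries, and whether that touches their ratios was not tested. Exons of 16 members overlap those of another gene in the GENCODE annotation, and whether counting used the strand is not stated. The overlap reached 10% of exon bases in 7 members: Chaf1a, Fen1, Gins2, Orc1, Rfc2, Rfc4 and Rfc5. Chaf1a shares 52.5% with Ubxn6, which was at 35 RPKM in mature and 30.6 RPKM in immature cells. Rfc2 shares 15.1% with Lat2, which was at 18.6 RPKM in mature and 44.9 RPKM in immature cells. Rfc4 shares 12.7% with Eif4a2, which was at 257 RPKM in mature and 71.6 RPKM in immature cells, and Gins2 shares 67.3% with Gse1, which was at 28.5 RPKM in mature and 13.2 RPKM in immature cells. The part of these overlaps in the ratios was not tested.

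Genes of the same and neighbouring pathways outside the 45 were lower in part, and those of mitosis throughout. The background for the counts of these lists is 11.3% lower and 9.05% higher of all genes tested. Of 33 other replication factors tested, 14 were lower, none was higher and 19 were within 2-fold, with a median log2 fold of -0.64. Clspn, the checkpoint mediator at the fork, was at 0.568 RPKM in mature and 15.2 RPKM in immature cells, 26.7-fold lower (17.6 to 42.4). Dna2, a nuclease and helicase, was 9.88-fold lower (7.67 to 12.9). Dscc1, a subunit of an alternative clamp loader, had 0 reads in mature and 58 reads in immature cells.

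Enzymes of nucleotide supply outside the 45 had none at least 2-fold higher, against 9.05% of all genes tested. Among other deoxynucleotide and folate enzymes, 8 of 15 were lower, with a median log2 fold of -1.08. Among them were Shmt2 and Shmt1, which feed carbon units into the folate cycle. Shmt2 was 3.44-fold lower (2.93 to 4.05) and Shmt1 4.45-fold lower (2.83 to 7.26).
De novo purine and pyrimidine enzymes had 5 of 15 lower, with a median log2 fold of -0.74. Ctps, CTP synthase, was 6.48-fold lower (4.63 to 9.30), Cad 3.49-fold (3.02 to 4.04) and Umps 2.74-fold (2.18 to 3.47). Salvage enzymes had 3 of 10 lower, against 11.3% of all genes tested, with a median log2 fold of -0.38. These 3 were Adk, Ada and Upp1, at 4.02-fold, 5.98-fold and 2.30-fold lower.

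Regulators of the entry into S phase were lower in part. Of 28 tested, 14 were lower, 3 were higher and 11 were within 2-fold, against 11.3% lower and 9.05% higher of all genes tested. Their median log2 fold was -0.98. Ccna2, the cyclin of S phase and G2, was at 1.14 RPKM in mature and 57.7 RPKM in immature cells, 50.6-fold lower (34.4 to 77.8). Ccnd1, a G1 cyclin, was 11-fold lower (8.59 to 14.2), and E2f8, a repressor of the E2F family, 10.4-fold lower (8.29 to 13.3). Higher were Cdkn1b, a CDK inhibitor, at 24.6 RPKM in mature and 6.54 RPKM in immature cells (ratio 3.76, 3.07 to 4.64), and E2f5, at 16.7 RPKM in mature and 4.35 RPKM in immature cells (ratio 3.84, 2.87 to 5.22).
The remaining higher one was Cdkn1a, another CDK inhibitor, at 337 RPKM in mature and 167 RPKM in immature cells, with a log2 fold of 1.01.

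Genes of mitosis were lower without exception, 22 of 22, with a median log2 fold of -3.49 that lay below that of the replication genes. Cdca3 was 77.1-fold lower (42.9 to 155), Ube2c 57.2-fold (33.2 to 108) and Ccnb2 76.0-fold (32.3 to 236). In recombination, mismatch and checkpoint repair 11 of 27 were lower, 1 was higher and 15 were within 2-fold, with a median log2 fold of -0.71. Among the lower ones were Rad51ap1 (35-fold, 15.8 to 96.7) and Fancd2 (9.30-fold, 6.28 to 14.3), and the higher one was Lig4, the ligase of end joining, with a ratio of 3.29 (2.25 to 4.94).
Chromatin duplication and maintenance had 6 of 12 lower, with a median log2 fold of -0.98, led by Uhrf1, H2ax and Hells at 15.9-fold, 5.05-fold and 5.36-fold. Cohesion and condensin genes had 7 of 11 lower, with a median log2 fold of -1.81. Ncaph was 29.9-fold lower (18.2 to 52.7), Ncapd2 8.73-fold (7.47 to 10.3), and the cohesin acetylase Esco2 had 3 reads in mature and 157 in immature cells, 55.9-fold lower (18.8 to 274).
Over these 9 lists 90 of 173 genes tested were lower and 4 were higher, against 11.3% lower and 9.05% higher of all genes tested. The median log2 fold of the lists together was -1.09.

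**Figure D3:**
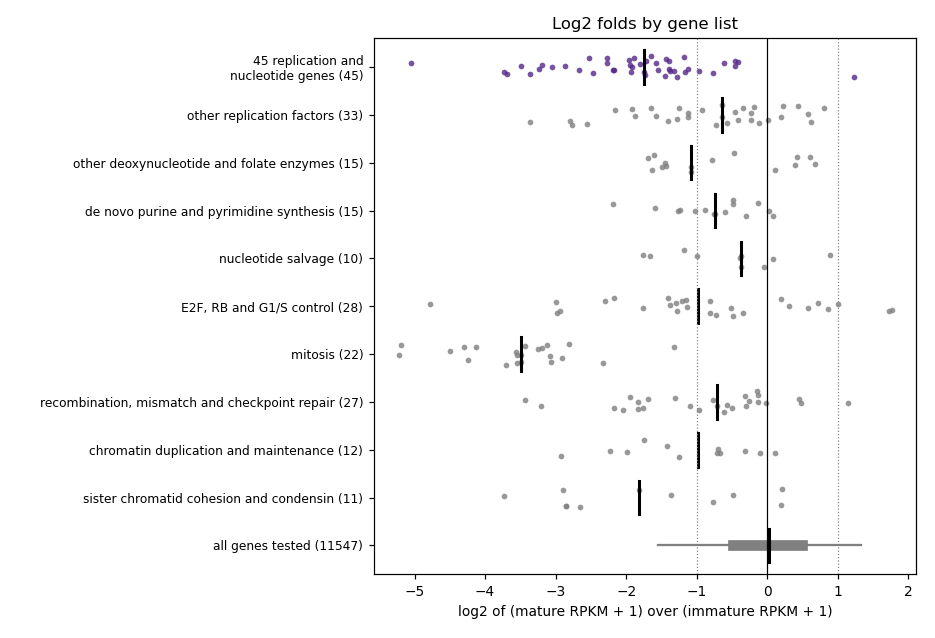
Log2 fold of (RPKM + 1), mature over immature, for each tested gene of the 45 members and of the 9 other lists, with the number of genes in parentheses and the median as a black bar. In the bottom row the box spans the quartiles and the thin line the 5th to 95th percentile of all 11547 genes tested, and the dotted lines mark 2-fold. The median of the members is -1.75, that of mitosis -3.49 and that of all genes 0.026.

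In the RefSeq promoter windows, from 250 bases before to 50 after the start, E2F-type words were found for 16 of the 37 members that had a window (43.2%). The share was 5.25% of the 8865 genes tested with a window and 2.70% of all 27025 genes of the table. CCAAT was found for 24 of 37 members (64.9%), against 43.1% of the genes tested and 41.1% of all genes, and CHR-type words for 9 (24.3%), against 16.8% of the genes tested and 21.7% of all genes. The median GC content of the windows was 58.8% for members and 60.7% for the genes tested. No test was made of these shares.
Matches occurred in members of low and of high fold. E2F-type words were present in 13 of the 32 members with a window that were at least 2-fold lower (40.6%) and in 3 of the other 5 (60.0%), a comparison limited by those 5 genes. Rrm2 and Top2a, with low folds, had none, and Gins3, the gene that was higher, had one. Chaf1b, Dut, Rfc4, Rfc5, Tk1 and Tyms had no match to any of the motifs. A match describes letters and not a bound site.
Among the other lists, E2F-type words were found in 54.5% of 11 chromatin duplication, 50% of 8 cohesion and condensin, 34.5% of 29 other replication and 31.8% of 22 E2F, RB and G1/S genes with a window. Mitosis genes had E2F-type words in 5%, CCAAT in 85.0% and CHR-type words in 80.0% of 20 genes. Top2a, with its 6 CCAAT and 4 CHR-type words, had the words frequent in that list. Other deoxynucleotide and folate enzymes had no E2F-type word in 13 genes.

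**Figure D4:**
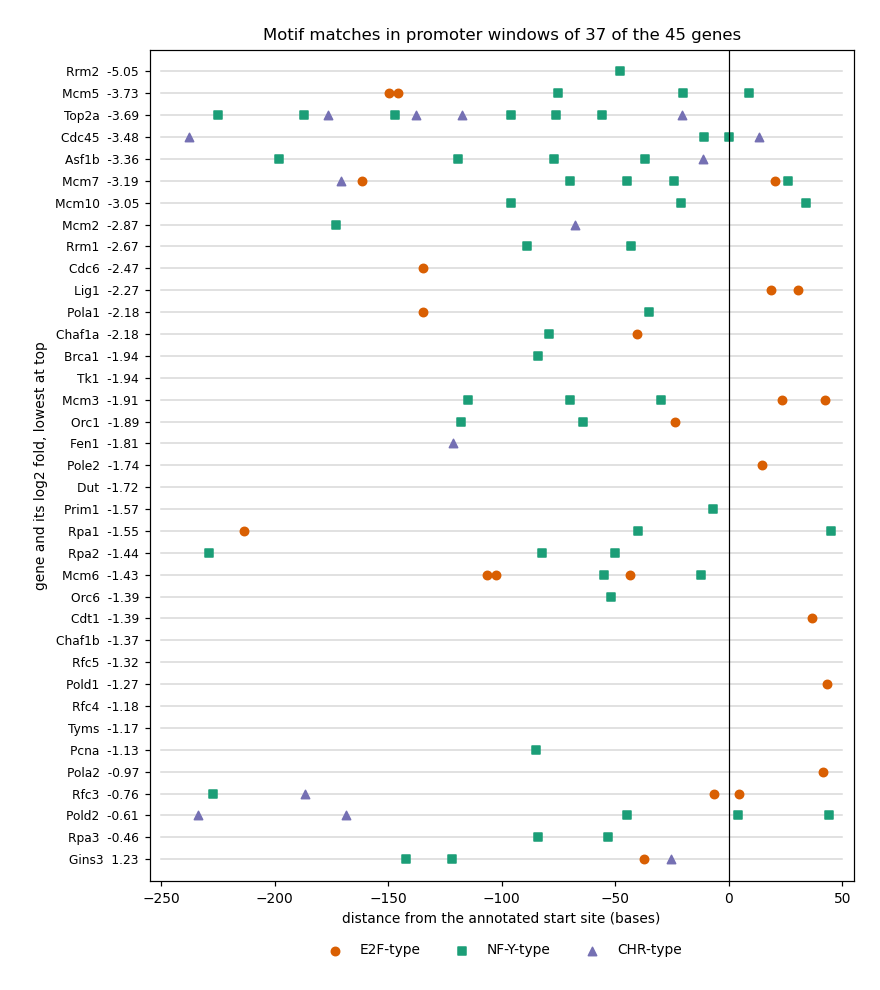
Positions of motif matches, in bases from the annotated start, in the promoter windows of 37 members ordered by log2 fold with the lowest at the top. Circles are E2F-type, squares NF-Y-type (CCAAT) and triangles CHR-type words. Matches of each kind occur in genes of both low and high fold, and 6 genes have none.

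**Figure D5:**
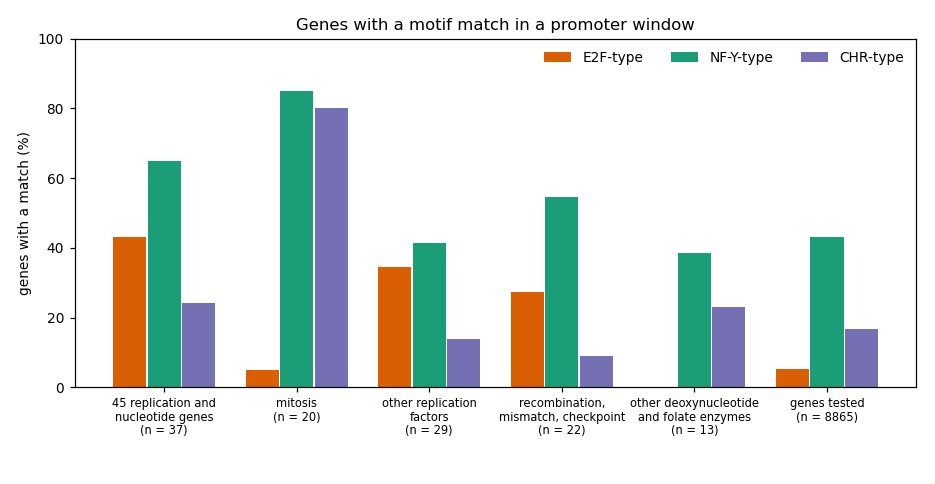
Percent of genes with at least 1 match in a promoter window for the members, 4 of the other lists and all genes tested, by kind of motif. The E2F-type bar is 43.2% for the members, 5% for mitosis and 5.25% for all genes tested. Of the lists not drawn, chromatin duplication (54.5%) and cohesion and condensin (50%) had larger E2F-type shares than the members, and the rest had smaller ones.

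Of the markers of other cell types, neutrophil and granulocyte, eosinophil and part of the macrophage, mast cell and progenitor markers were lower together with most of the 45 genes. The background for the marker counts is 11.3% lower and 9.05% higher of all genes tested. Dendritic cell markers had a summed level of 6479 RPKM in mature and 8146 RPKM in immature cells, most of it from Cd74, H2-Aa and H2-Ab1, and 5 were higher and 1 lower of 10. Flt3 was at 3.28 RPKM in mature and 0.722 RPKM in immature cells, so not each of these markers was abundant. Cd86, on which cells were sorted, was at 152 RPKM in mature and 26.1 RPKM in immature cells. The genes of the other sort marker, I-Ab, were within 2-fold. H2-Ab1 was at 978 RPKM in mature and 1256 RPKM in immature cells (ratio 0.779, 0.758 to 0.800). H2-Aa was at 1260 RPKM in mature and 1159 RPKM in immature cells. The lower marker was Itgax, at 148 RPKM in mature and 407 RPKM in immature cells. Neutrophil and granulocyte precursor markers summed to 1267 RPKM in mature and 7277 RPKM in immature cells, with 10 of 11 lower. Most of the sum in immature cells came from S100a9, at 501 RPKM in mature and 3449 RPKM in immature cells, S100a8 and Ngp, while Mpo, a gene of precursors, was at 1.25 RPKM in mature and 34.9 RPKM in immature cells. Eosinophil markers summed to 12.4 RPKM in mature and 388 RPKM in immature cells, with 4 of 4 lower. Macrophage and monocyte markers summed to 677 RPKM in mature and 1264 RPKM in immature cells, with 4 of 8 lower.
Stem and progenitor markers summed to 11 RPKM in mature and 26 RPKM in immature cells, with Cd34 and Myb lower, Flt3 higher, Kit within 2-fold and Gata1 below 1 RPKM in both. Mast cell and basophil markers summed to 10.3 RPKM in mature and 21.4 RPKM in immature cells, with Ms4a2 and Fcer1a at 0 reads in both. Erythroid markers summed to 0.409 RPKM in mature and 1.58 RPKM in immature cells, with Hba-a1 and Car1 among those at 0 reads in both. Only 1 of these 7 genes reached the 1 RPKM needed for a call, and it was within 2-fold. Since uniquely placed reads alone were counted, 0 reads for a gene need not mean that its RNA was absent. T cell markers summed to 6.54 RPKM in mature and 3.25 RPKM in immature cells. B cell markers summed to 1.91 RPKM in mature and 2.26 RPKM in immature cells, and NK cell markers to 3.01 RPKM in mature and 2.34 RPKM in immature cells. Only 3 of 7 T cell, 1 of 6 B cell and 1 of 5 NK cell markers could be called, and all of these were within 2-fold. The part of granulocytes, their precursors and other cells in the lower replication genes was not tested.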

How the data were processed

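RNA of 1 mature and 1 immature library was measured by RNA-seq. The read counts are of uniquely placed reads per gene and are not normalised, per the file headers. The authors made RPKM from them by gene length and total reads, and this formula gave back the deposited RPKM with a relative error of at most 1.07e-07. The percent of gene length covered was deposited by the authors and used only for checks. Per the submitters' processing notes the build was mm8. Not given in the sources used here are the aligner, the counting tool, the strand setting and the annotation.

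Genes were matched to symbols by Entrez number through RefSeq's table of genes (GRCm38.p6), for 16220 of 18090 numbers. A gene listed in only 1 file was taken as 0 reads in the other. Log2 folds used a pseudocount of 1 RPKM over the 11547 genes that reached 1 RPKM in either library, and a call needed 2-fold. Ratios carry exact 95% Clopper-Pearson intervals (scipy 1.17.1). The intervals cover counting error only and treat each read as a separate draw. Reads carry no molecular identifiers and may repeat a molecule, so the intervals may be too narrow. Promoters came from the RefSeq table of assembly GRCm38.p6, in which 37 of the 45 members had a window. Exon overlaps came from the GENCODE mouse annotation. The 2-fold calls and the ratio intervals were tested on simulated counts, drawn without spread between replicates. The other steps were not simulated.

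The members and lists were chosen with earlier results of these data known. All members are named. From each other list the 3 lowest and up to 2 highest log2 folds among genes at least 2-fold apart are named, and marker lists are given by their sums, by calls and by genes at 0 reads. Some genes that this rule names are not reported here. Cdkn1a was named after its value was seen. Alternatives were other pseudocounts, filters and thresholds, a coverage minimum, and rescaling by RPKM sums, by edgeR 4.0.16 (TMM factors) and by DESeq2 1.42.0 (size factors), which were used for scaling only. Of the marker symbols 1 could not be matched and was left out.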

Additional observations from a re-analysis of the deposited data

How the results depend on the processing

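Pseudocounts, filters and the coverage minimum cannot change the direction of a gene. The same amount is added to both libraries, and filters only drop genes. Under each scaling 44 of the 45 genes were lower and Gins3 was higher. Scalings moved the median of all genes by at most 0.0998 on the log2 scale. The smallest log2 fold in size among members was -0.415, for Gins4, so shifts of that size could not turn a direction either. The count of lower members ran from 32 to 39 over the settings other than the 4-fold threshold. Pola2 passed 2-fold with a pseudocount of 0.1 RPKM and with TMM factors.

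With a pseudocount of 5 RPKM, 13 members were within 2-fold, 0 were higher, and the median log2 fold of the members was -1.21 and that of licensing genes -1.32. Over all genes 686 were then lower and 469 higher. A pseudocount of 0.1 RPKM gave a median of -1.59 for replication protein A. At a 4-fold threshold on the log2(RPKM + 1) scale 16 members were lower and 0 higher, against 316 lower and 197 higher of all genes tested. By role these were 5 licensing, 3 origin firing, 2 polymerase, 1 clamp, 0 replication protein A, 2 nucleotide and 3 topology and chromatin genes. Requiring the counting interval to lie beyond 2-fold left 3 clamp genes lower. These moves follow from the settings themselves: a larger pseudocount shrinks folds, a smaller one widens them, and a higher limit passes fewer genes. No paired analysis was possible because each group has 1 library, and no replicate could be left out. Depth limits Orc1, Cdc6, Mcm10 and Gins1, each with 9 to 11 reads in mature cells.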
